A study of Mus musculus with 40 samples.

Results

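The genes described here encode the subunits of the mitochondrial respiratory chain and of the ATP synthase, with the assembly factors of complex I. They were chosen by symbol and a floor on level, with earlier results of these data known. The symbols were those beginning with Nduf, Cox4 to Cox8, Uqcr or Atp5, and the protein-coding genes of the mitochondrial genome. The floor was a mean of at least 1 CPM (counts scaled to a common library size) over the 40 libraries. Of 57010 genes in the table, 116 matched by name and 98 met the rule. These were 85 nuclear genes and 13 mitochondrial genes. The nuclear genes were 38 subunits and 8 assembly factors of complex I, 8 genes of complex III, 14 of complex IV and 17 of the ATP synthase. Pseudogenes were left out by the rule, 9 in all, of which Ndufb1-ps was counted at a mean of 222 CPM and 3 others (Atp5l-ps1, Atp5l-ps2 and Atp5l2-ps) at or above the floor. Another 9 genes fell below it, the highest being Cox6b2 at a mean of 0.259 CPM, and Cox8b, Cox8c and Cox7b2 had no count in any library. The lowest gene kept was Atp5s, at 3.68 CPM. Ndufb4c and Cox6c2 are close copies of other genes here, so their counts are uncertain.

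Respiratory complexes I, III and IV pump protons across the inner mitochondrial membrane, and the ATP synthase uses that gradient to make ATP. Most subunits are nuclear genes whose proteins are imported, while a small core is encoded by mitochondrial DNA. That DNA is transcribed from both strands as long precursors, which are mostly cut at the tRNAs, and most of the messengers are then polyadenylated. Macrophages exposed to bacterial lipopolysaccharide (LPS) are known to shift their energy supply from respiration towards glycolysis.

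The macrophages were differentiated from mouse bone marrow in medium conditioned by L929 cells, and all mice carried loxP-flanked alleles of Otulin, a deubiquitinase for linear ubiquitin chains. WT cells were OtulinFL/FL, and KO cells were OtulinFL/FL LysMCreTg/WT, in which the myeloid Lyz2 (LysM) promoter drives Cre. Cells were taken before LPS (0 h) or 3, 6, 12 or 24 h after 500 ng/ml of LPS, with 4 biological replicates in each of the 10 groups. No group carried Cre without the floxed alleles, so loss of Otulin and the presence of Cre cannot be told apart.

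Reads were 3′ tags, which are meant to mark a transcript near its poly(A) tail whatever its length. Where the tags of each gene lie was not tested. Library totals ran from 3615155 to 6829303 counts (median 4471933), and all 60 pairs of replicates differed by more than sampling noise. Otulin was counted in every library. At 0 h it lay between 30.4 and 43.6 CPM in KO, against 38.1 to 44.6 CPM for WT, and at 12 h the ranges again overlapped. At 3 and 6 h all KO libraries, at 29.0 to 33.5 CPM, lay below all WT ones, at 35.7 to 47.5 CPM. At 24 h the order was the reverse, with 45.2 to 51.7 CPM in KO above 27.6 to 37.1 CPM for WT, against the direction of a knockout. Whether those tags lie outside the deleted part is not given in the sources used here, so this level checks nothing, and WT and KO are used here as the libraries are labelled. The 8 macrophage markers summed to 3746 to 7686 CPM at 0 and 24 h, against at most 2.69 CPM for lymphoid and 1.38 CPM for stromal markers. The neutrophil list summed to between 16.0 and 45.1 CPM at the same times. The erythroid and platelet list reached 1097 CPM over all times. In 10 libraries, those of KO replicate 3 and WT replicate 4 at all times, Xist was below 10 CPM. Fewer cells and less RNA per cell cannot be told apart in bulk samples, and p-values measure the spread between these libraries.

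Levels are CPM on TMM-scaled totals and differences are log2 fold changes with their standard error (SE) from edgeR's quasi-likelihood test. A gene is said to have risen or fallen when its Benjamini-Hochberg adjusted p over all genes tested was under 0.05. The scale matters for these genes. The TMM factors were 1.22 to 1.29 at 0 h and 0.827 to 0.901 at 6 h, and without them the median of all genes in WT moved to -0.40, -0.59, -0.47 and -0.32 at 3, 6, 12 and 24 h, from -0.05, -0.09, -0.07 and -0.02. For that reason ratios within a library, which need no scaling, are given first.

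The balance between mitochondrial and nuclear transcripts turned towards the nuclear genes late after LPS, in both genotypes. Summed over the members, the log2 ratio of mitochondrial to nuclear counts in WT was 0.20, 0.39, 0.35 and 0.18 in the 4 libraries at 0 h and -0.31, -0.10, -0.23 and -0.31 at 24 h. The groups did not overlap, and their means were 0.28 ± 0.11 and -0.24 ± 0.10 (SD, n = 4). In KO the ratio was 0.03, 0.08, 0.02 and 0.10 at 0 h and -0.25, -0.35, -0.28 and -0.78 at 24 h, again without overlap. Before that the ratio had moved the other way: at 3 h it stood at 0.46 ± 0.06 in WT and 0.31 ± 0.22 in KO (SD, n = 4). All 4 WT libraries at 3 h, between 0.43 and 0.54, lay above the 4 at 0 h. In KO the lowest library at 3 h, 0.04, lay within the range at 0 h. The share of all counts that came from the 13 mitochondrial genes went from 1.49% ± 0.13 to 0.802% ± 0.045 in WT and from 1.33% ± 0.10 to 0.743% ± 0.060 in KO (SD, n = 4). The 85 nuclear genes went from 1.22% ± 0.04 to 0.944% ± 0.044 in WT and from 1.28% ± 0.09 to 0.991% ± 0.104 in KO. Unlike the ratio, these shares are on the scale of library totals, on which the median of all genes in WT was lower at 24 h as well.

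**Figure D1:**
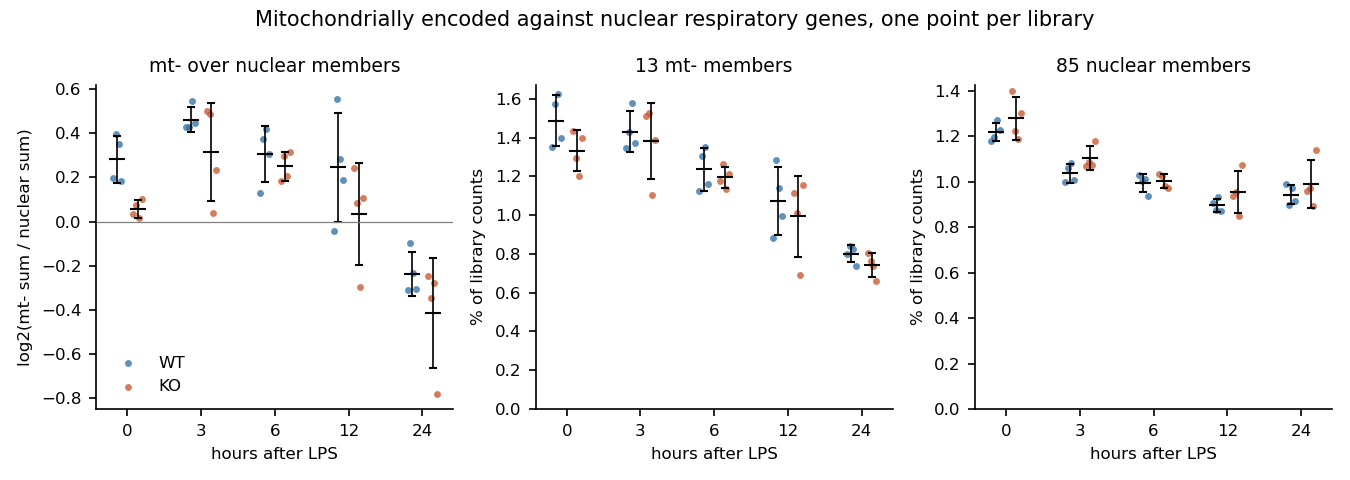
Log2 ratio of summed mitochondrial to summed nuclear CPM, percent of counts from the 13 mitochondrial genes and percent of counts from the 85 nuclear genes (y axes) in each of 40 libraries (points) against hours after LPS, by genotype. The ratio falls below 0 in all 8 libraries at 24 h, from 0.02 to 0.39 at 0 h, and needs no scaling between libraries. The percents are on the scale of library totals.

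Within the mitochondrial genome, the transcripts moved far apart by 24 h. mt-Nd3, a small membrane subunit of complex I, fell the most of the 13, while mt-Co1, the catalytic subunit of complex IV, was the only one that rose. The annotated 3′ ends of the transcripts that moved furthest are printed here. They are the last 30 bases of each transcript in GENCODE vM21, 5′ to 3′, with the encoded bases of the stop codon in capitals. Tags are meant to lie near poly(A) tails, and whether each printed end lies next to a tail was not tested. The reading frame of mt-Nd4l shares a messenger with mt-Nd4, so its printed end need not be near a tail. What the mt-Nd4l counts mark was not tested, nor what those of mt-Atp8, mt-Atp6 and mt-Nd6 mark.
mt-Nd3: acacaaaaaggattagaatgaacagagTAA
mt-Nd4l: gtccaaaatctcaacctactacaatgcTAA
mt-Nd1: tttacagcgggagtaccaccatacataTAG
mt-Nd2: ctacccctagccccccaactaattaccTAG
mt-Cytb: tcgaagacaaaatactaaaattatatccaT
mt-Co1: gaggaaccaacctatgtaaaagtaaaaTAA
The tail itself supplies the rest of the stop codon in mt-Cytb, as in mt-Co3 and mt-Nd4, whose last encoded base is also a lone T. The other 10 transcripts encode a whole stop codon, among them both mt-Nd3, which fell, and mt-Co1, which rose. The 13 transcripts run from 204 to 1824 bases, and the longest run of A inside any of them is 8 bases.

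mt-Nd3 was counted at 478, 508, 534 and 543 CPM in WT at 0 h, at 296, 282, 286 and 201 CPM at 12 h, and at 63.0, 82.0, 74.1 and 43.1 CPM at 24 h. In KO it was counted at 769, 432, 493 and 504 CPM at 0 h and at 74.1, 47.3, 53.7 and 60.6 CPM at 24 h. Every library at 24 h lay below every library at 0 h by a wide margin, in both genotypes. The difference at 24 h was -2.97 ± 0.18 in WT (SE, adjusted p = 2.76e-11, edgeR) and -3.22 ± 0.22 in KO (adjusted p = 2.78e-10). At 3 and 6 h mt-Nd3 had not changed by the test: its WT differences were 0.18 ± 0.16 and -0.05 ± 0.16. On library totals alone the fall at 24 h was -3.27 in WT and -3.51 in KO.

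mt-Co1 in WT was counted at 585, 660, 685 and 654 CPM at 0 h and at 875, 957, 1021 and 873 CPM at 24 h, with no overlap. The KO libraries held 583, 568, 494 and 584 CPM at 0 h and 1006, 1026, 831 and 806 CPM at 24 h, also without overlap. The difference at 24 h was 0.53 ± 0.10 in WT (SE, adjusted p = 5.86e-05, edgeR) and 0.72 ± 0.11 in KO (adjusted p = 3.39e-06), and on library totals alone it remained a rise, of 0.23 (adjusted p = 0.0493) and 0.42. The earlier mt-Co1 calls depended on the scale, since on library totals its WT values were -0.08, -0.27 and -0.05 at 3, 6 and 12 h. The WT call at 3 h also ended without WT replicate 3 or 4, and the one at 6 h without any of the 4. The log2 ratio of mt-Co1 to mt-Nd3 within a library went from 0.32 ± 0.05 to 3.87 ± 0.34 in WT and from 0.05 ± 0.34 to 3.97 ± 0.33 in KO (SD, n = 4), which no scaling touches.

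The other mitochondrial transcripts lay between these. mt-Nd4l, whose reading frame is carried on 1 messenger with mt-Nd4, was at 47.9, 59.7, 55.5 and 47.5 CPM in WT at 0 h and at 11.9, 21.4, 15.3 and 16.1 CPM at 24 h. It fell without overlap, by 1.70 ± 0.13 on the log2 scale (SE, adjusted p = 1.4e-11, edgeR), and in KO, where it was at 21.3 to 23.7 CPM at 24 h, by 1.02 ± 0.18. Its partner mt-Nd4 fell by 0.42 ± 0.11 in WT and by 0.34 ± 0.12 in KO. The log2 ratio of mt-Nd4 to mt-Nd4l therefore widened from 5.31 ± 0.07 to 6.62 ± 0.32 in WT and from 5.39 ± 0.44 to 6.00 ± 0.17 in KO (SD, n = 4), and in KO the ranges, 4.93 to 5.98 and 5.77 to 6.16, overlapped. mt-Nd1, mt-Nd2 and mt-Cytb, of complexes I and III, fell by 1.28, 1.11 and 1.10 in WT and by 1.21, 1.11 and 1.09 in KO. mt-Atp8 fell by 0.78 and 0.48 and mt-Co3 by 0.33 and 0.32. mt-Atp6, at -0.33 and -0.35, and mt-Nd6, the subunit gene on the opposite strand, at -0.49 and -0.20, passed in WT only. mt-Co2, at -0.05 and -0.04, and mt-Nd5, at -0.23 and 0.02, passed in neither genotype, though on library totals mt-Nd5 fell in WT by 0.53 (adjusted p = 0.00379). By complex, 6 of the 7 complex I genes, mt-Cytb of complex III and both ATP synthase genes fell in WT, against 1 of the 3 genes of complex IV.

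In counts, 10 of the 13 mitochondrial genes fell and 1 rose at 24 h in WT, where 35.4% of all genes tested fell and 34.5% rose (69.9% in either direction). In KO, 8 fell and 1 rose, against 33.0% and 32.8% (65.8% in either direction). All 8 that fell in KO were among the 10 of WT, an overlap that was not counted over all genes. The median of the 13 was -0.49 in WT and -0.35 in KO, beside medians of -0.02 and -0.01 over all genes. The 10 and 8 genes kept these calls on library totals. Leaving out WT replicate 3 ended the calls of mt-Atp6 and mt-Nd6, and leaving out WT replicate 2 also ended that of mt-Nd6. In KO, mt-Atp8 lost its call without replicate 2, mt-Co3 without replicate 1 or 4, and mt-Nd4 without replicate 2 or 4.

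**Figure D2:**
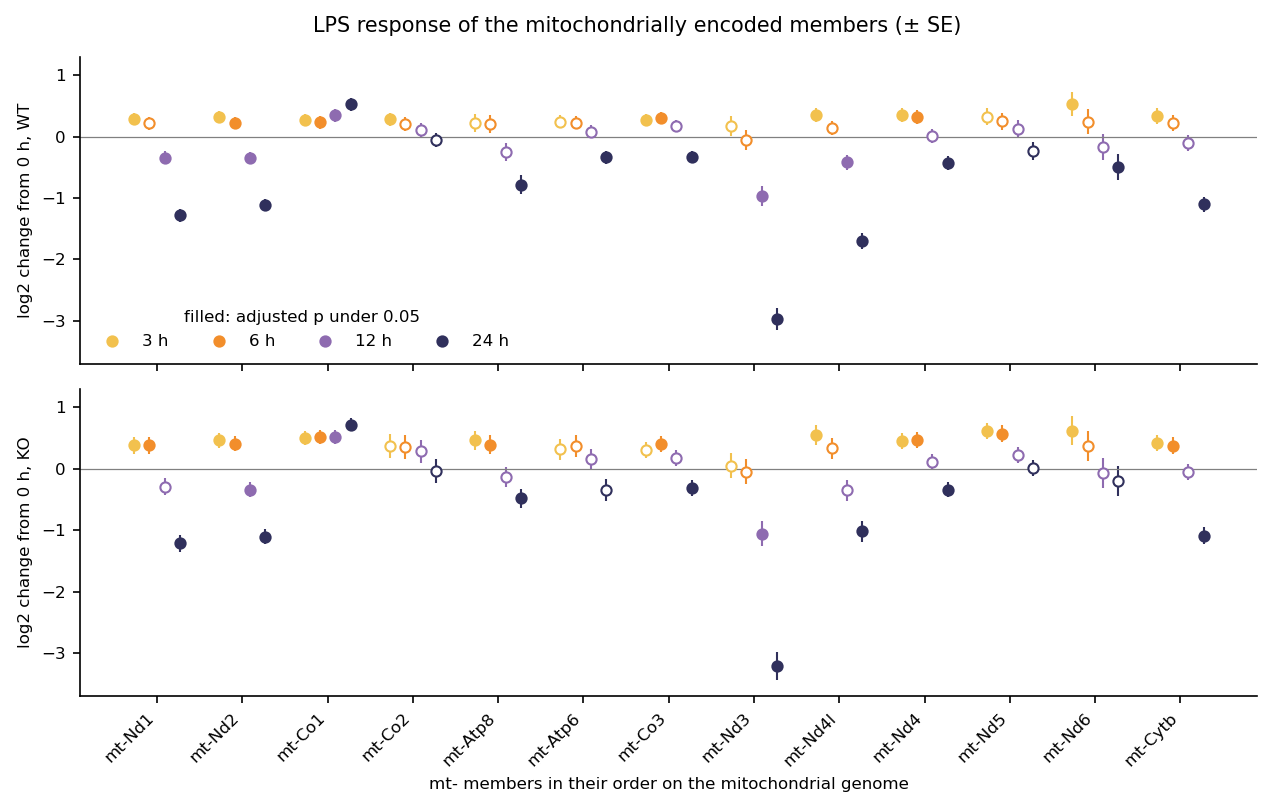
Log2 fold change against 0 h (y axis, TMM scale, bars are SE) of the 13 mitochondrial genes in genome order (x axis) at 3, 6, 12 and 24 h in WT and KO; filled points passed the adjusted threshold. mt-Nd3 stands lowest at 24 h (-2.97 and -3.22) and mt-Co1 is the only gene above 0 by the test; the rises at 3 and 6 h do not pass on library totals.

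Earlier, on the TMM scale, mitochondrial transcripts stood higher than at 0 h. At 3 h, 9 of the 13 rose in WT and 9 in KO. Of these 7 were shared, an overlap not counted over all genes. At 6 h 4 rose in WT and 8 in KO. On library totals, however, none rose at either time, and at 6 h 9 fell in WT and 1 in KO. Over all genes, 26.6% rose at 3 h and 31.0% at 6 h in WT (54.6% and 68.1% in either direction). The shares in KO were 22.9% and 28.7% (48.6% and 64.7%). Medians of the 13 were 0.29 and 0.23 in WT and 0.46 and 0.38 in KO, which lay 0.34, 0.31, 0.50 and 0.50 above the median of all genes in the same fit. That distance was 0.33, 0.31, 0.49 and 0.49 on library totals. Few of these calls held up when a replicate was left out: 1 of 9 at 3 h in WT and 3 of 9 in KO were called in all 4 such fits. The count at 3 h ranged down to 5 without WT replicate 1 or 3, and to 5 in KO without replicate 1 or 2. At 6 h 2 were called without any 1 of the WT replicates. mt-Nd5, the largest mitochondrial subunit of complex I, was at 247, 366, 300 and 359 CPM in KO at 0 h and 529, 535, 406 and 494 CPM at 3 h. The KO groups did not overlap, and mt-Nd5 rose by 0.61 ± 0.13 (SE, adjusted p = 0.000432, edgeR). In WT mt-Nd5 was at 332 to 443 CPM at 0 h and 446 to 536 CPM at 3 h, also without overlap. The WT difference was 0.33 ± 0.14 (adjusted p = 0.0613, edgeR). It passed with DESeq2 (adjusted p = 0.0207), with RLE factors and without WT replicate 2, and on library totals it was -0.03.

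The mitochondrial genes fell both between 6 and 12 h and between 12 and 24 h. The share of counts from the 13 genes in WT was 1.24% at 6 h, 1.07% at 12 h and 0.802% at 24 h, and in KO 1.20%, 0.993% and 0.743%. From 6 to 12 h 7 genes fell in WT and 8 in KO and none rose (4 and 5 on library totals), where 23.4% and 22.0% of all genes fell. At 12 h against 0 h, 4 had fallen in WT and 2 in KO, or 11 and 7 on library totals (mt-Nd2 and mt-Nd3 in both on the TMM scale, mt-Nd2 in KO only with replicates 2, 3 and 4 all kept), while mt-Co1 was higher in both on the TMM scale but not on library totals. Over all genes 35.9% fell and 32.3% rose in WT (68.2% in either direction), and 34.0% and 30.7% in KO (64.8%). Between 12 and 24 h, 9 fell in WT and 8 in KO, where 20.5% and 18.8% of all genes fell (39.6% and 36.9% in either direction). mt-Nd3 fell by 2.01 in WT and by 2.16 in KO in that interval, and mt-Cytb by 1.00 and 1.03. The comparisons against 0 h within a genotype share the same 0 h libraries, and each interval shares libraries with the next.

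The nuclear genes changed in both directions. At 24 h in WT, 33 of the 85 fell and 10 rose, with a median of -0.16, and on library totals 68 fell and 3 rose. The count that fell lies near the share over all genes, 35.4%, and the count that rose lies below the 34.5% of all genes. In KO, 29 fell and 10 rose with a median of -0.17, against 60 and 2 on library totals. Without KO replicate 1 that became 15 and 9, and without KO replicate 4 it became 39 and 5. On library totals the median of all genes in WT was lower as well, and shares over all genes are not given on that scale. All 33 and 29 genes that fell kept the call there. Of the genes that rose, Cox5a, Ndufaf3 and Ndufc2 kept it in WT and Cox5a and Ndufaf3 in KO. Between the genotypes, whose libraries are separate, 25 falls and 8 rises were common and no gene moved in opposite directions. There were 16 nuclear genes that passed at none of the 4 times in WT and 24 in KO. Neither these nor the shared calls were counted over all genes, so they are not shown to be particular to the members.

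At 3 and 6 h the nuclear balance was reversed on the TMM scale, but not on library totals. In WT, 18 rose and 4 fell by 3 h. By 6 h those higher numbered 34 and those lower 11, whereas on library totals 61 (3 h) and 66 (6 h) fell and none rose. On that scale the median of all genes in WT was lower as well, and shares over all genes are not given for it. In KO, 6 were higher and 3 lower by 3 h, then 27 higher and 5 lower by 6 h, against 36 and 71 falling and none rising on library totals. Over all genes 28.0% and 37.1% fell in WT at these times and 25.7% and 36% in KO. The shares that rose were 26.6% and 31.0% in WT and 22.9% and 28.7% in KO. At 3 h the nuclear rises on the TMM scale lay below these shares in both genotypes. At 6 h they lay above the share in WT and near it in KO. The nuclear median lay 0.12 and 0.21 above that of all genes in WT on either scale. In KO it lay 0.11 and 0.23 above it. A single library weighed on the counts at 3 h, where 8 rose without WT replicate 3, 9 without WT replicate 1 and 12 without WT replicate 2. In KO 1 rose at 3 h without replicate 2, and at 6 h 13 rose without replicate 2 and 17 without replicate 3. From 6 to 12 h 45 nuclear genes fell and none rose in WT, and 32 and 0 in KO, where 23.4% and 22.0% of all genes fell and 22.3% and 22.7% rose (45.6% and 44.8% in either direction). On library totals 26 fell and 2 rose in WT, and 10 and 3 in KO. Without KO replicate 1 or 2 the KO count was 21 or 15. Between 3 and 6 h few nuclear genes moved on the TMM scale, 9 up and 3 down in WT and 3 up and 3 down in KO, whereas on library totals 12 and 19 fell and none rose. Over all genes 20.4% rose and 21.9% fell in that interval in WT (42.3% in either direction), and 19.0% and 21.6% in KO (40.6%). Without WT replicate 1 or 2 the 9 became 1 or 2. At 12 h 35.9% of all genes had fallen and 32.3% risen in WT, and 34.0% and 30.7% in KO. Of the nuclear genes 30 had fallen and 8 risen in WT by then, and 23 and 10 in KO. Without KO replicate 1 or 2, 14 had fallen there, and none of these rises kept its call on library totals.

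The highest and lowest genes of the classes at 3 h in WT show how small the early differences were. Among the highest were Ndufaf8 (0.10), Uqcrfs1 (0.26), Cox7a1 (0.28), Atp5k (0.27) and mt-Nd6 (0.53), of which Uqcrfs1, Atp5k and mt-Nd6 passed. On library totals Ndufaf8, Uqcrfs1 and Atp5k were below 0. Leaving out WT replicate 2 or 3 ended the call of Uqcrfs1, WT replicate 3 that of Atp5k, and WT replicate 1 or 2 that of mt-Nd6. Lowest were Ndufs7 (-0.21), Ndufaf7 (-0.73), Uqcr10 (-0.06), Cox6c2 (-0.20), Atp5s (-0.91) and mt-Nd3 (0.18). Of these Ndufaf7 and Atp5s passed, and the call of Atp5s ended without WT replicate 2, 3 or 4.

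**Figure D3:**
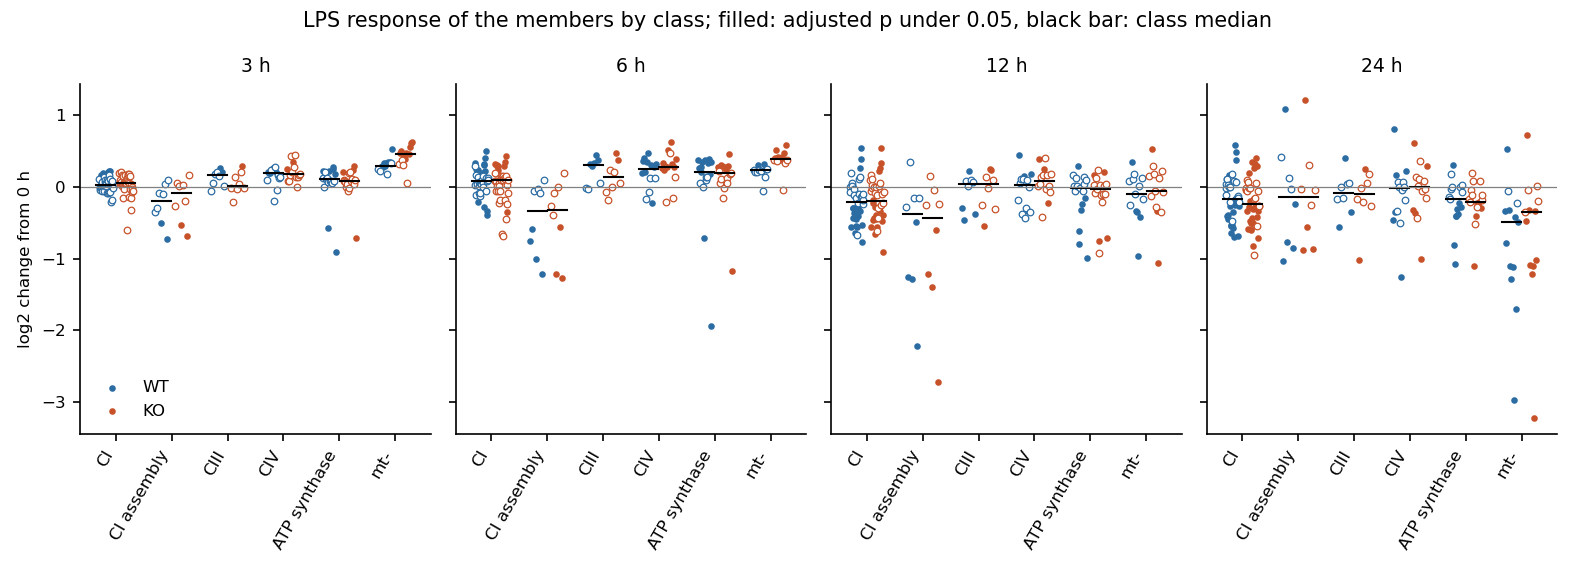
Log2 fold change against 0 h (y axis, TMM scale) of every member by class (x axis) at 3, 6, 12 and 24 h, in WT and KO. Complex I assembly factors lie lowest among the nuclear classes up to 12 h, with a WT median of -0.38 there; the positive medians of complexes III and IV at 6 h, 0.30 and 0.24 in WT, turn negative together with the nuclear median on library totals.

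Complex I, which oxidises NADH, has the most subunits. At 24 h 16 of its 38 subunits fell and 4 rose in WT, and 16 and 6 in KO, with a WT median of -0.17. Over all genes 35.4% fell and 34.5% rose in WT and 33.0% and 32.8% in KO, which is the background for each class at 24 h. At 6 h 10 had risen and 4 (Ndufa6, Ndufs1, Ndufs7 and Ndufs8) fallen in WT, where 31.0% of all genes rose and 37.1% fell. On library totals the 4 falls kept their call and no rise did. Of the 7 core subunits, which carry the flavin and the iron-sulphur clusters, Ndufs8 fell by 0.69 ± 0.11 and Ndufs1 by 0.25 ± 0.07 in WT at 24 h (SE). Both also fell in KO, by 0.72 and 0.28. Ndufs3, another core subunit, rose by 0.48 in WT and 0.40 in KO, but on library totals it was at 0.18 and 0.10 and did not pass. The subunit with the highest difference at 24 h in WT was Ndufc2, a membrane-arm subunit. Its WT levels were 97.0, 89.8, 96.4 and 100 CPM at 0 h and 164, 132, 146 and 134 CPM at 24 h. The groups did not overlap and the rise was 0.58 ± 0.09 (SE, adjusted p = 4.3e-06, edgeR). In KO it was 0.32 ± 0.13 (adjusted p = 0.0292), a call that ended without replicate 2 or 4 and on library totals, where it was 0.02. Ndufs4, an accessory subunit, rose at all 4 times in WT on the TMM scale, reaching 0.53 at 12 h, and passed at no time on library totals. The lowest subunit was Ndufb7, which fell by 0.70 ± 0.16 in WT. In 1 fit of all 40 libraries its WT difference was -0.70 (adjusted p = 0.146, edgeR) and did not pass. In KO it stood at 58.8, 13.6, 16.0 and 12.5 CPM at 0 h, so replicate 1 lay far above the other 3, and its difference of -0.95 ± 0.52 did not pass.

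Among the assembly factors of complex I, 4 of 8 fell and 1 rose at 24 h in WT and 3 and 1 in KO, with medians of -0.14 and -0.15. Ndufaf7, a methyltransferase that modifies a core subunit during assembly, was at 14.6, 15.3, 14.5 and 14.1 CPM in WT at 0 h, 2.43, 1.09, 3.43 and 5.23 CPM at 12 h and 9.98, 6.24, 7.91 and 8.52 CPM at 24 h. Every later library lay below all 4 at 0 h, and those at 12 h below those at 24 h. The difference was -2.22 ± 0.23 at 12 h (SE, adjusted p = 4.95e-09, edgeR) and -0.85 ± 0.20 at 24 h in WT, and -2.72 ± 0.23 and -0.87 ± 0.19 in KO. From 12 to 24 h Ndufaf7 rose again, by 1.38 in WT and 1.86 in KO. Ndufaf4 fell at all 4 times in both genotypes, most at 12 h, by 1.29 ± 0.11 in WT and by 1.39 ± 0.13 in KO. Ndufaf2 fell by 1.03 ± 0.20 at 24 h in WT and by 0.88 ± 0.22 in KO. These falls held on library totals. Ndufaf3 went the other way: it was at 12.0, 12.0, 13.8 and 10.2 CPM in WT at 0 h and 31.4, 20.5, 24.8 and 25.8 CPM at 24 h. In KO it was at 10.7 to 15.7 CPM at 0 h and 24.9 to 34.5 CPM at 24 h. The groups did not overlap in either genotype, and the rise was 1.09 ± 0.15 in WT (adjusted p = 7.94e-07) and 1.20 ± 0.16 in KO, or 0.78 and 0.91 on library totals. Of the 8 factors, 4 had fallen at 6 and at 12 h in WT and none had risen. Over all genes 37.1% and 35.9% fell in WT at these times and 31.0% and 32.3% rose.

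Complex III passes electrons from ubiquinol to cytochrome c, and 8 of its genes were members. At 6 h 5 rose in WT and none fell on the TMM scale, where 31.0% of all genes rose, and the median was 0.30, but on library totals all 8 were below 0. From 6 to 12 h 6 fell, where 23.4% of all genes fell. At 24 h 2 of the 8 fell and 1 rose in WT, and 1 and 1 in KO, against 35.4% and 34.5% of all genes in WT. Uqcr11, a small accessory subunit, was at 34.0, 35.1, 41.0 and 38.4 CPM in WT at 0 h and at 31.8, 19.4, 24.3 and 26.0 CPM at 24 h. The 4 later libraries lay below the earlier ones, and the difference was -0.55 ± 0.13 (SE, adjusted p = 0.000528, edgeR). In KO it was at 72.2, 41.0, 39.3 and 47.0 CPM at 0 h and 21.1 to 29.6 CPM at 24 h, a difference of -1.03 ± 0.19 (adjusted p = 5.86e-05). KO replicate 1 was the highest library at 0 h. Uqcrc2, a core protein, rose by 0.40 ± 0.07 in WT and 0.25 ± 0.10 in KO, but neither passed on library totals, where they were 0.10 and -0.05. Uqcrh, the hinge protein, rose at 6 h by 0.37 in both genotypes on the TMM scale and stood at -0.13 and -0.19 on library totals.

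In complex IV, cytochrome c oxidase, Cox5a was called higher at all 4 times in WT on the TMM scale but at 24 h alone on library totals. Ndufs4 of complex I was also called at all 4 times on the TMM scale, and at none on library totals. Cox5a encodes a matrix-side subunit and was at 203, 186, 224 and 231 CPM in WT at 0 h and 412, 345, 372 and 348 CPM at 24 h. In KO it was at 330, 207, 224 and 237 CPM at 0 h and 375, 397, 315 and 437 CPM at 24 h. The WT groups did not overlap. In KO replicate 1 at 0 h, the highest of its group, lay above the lowest library at 24 h. The rise at 24 h was 0.81 ± 0.09 in WT (SE, adjusted p = 5.73e-09, edgeR) and 0.61 ± 0.13 in KO (adjusted p = 0.000197), or 0.51 and 0.31 on library totals. The WT values at 3, 6 and 12 h were 0.21, 0.35 and 0.44. On library totals those were -0.15, -0.15 and 0.04 and none passed, and the call at 3 h also ended without WT replicate 1, 2 or 3. Its partner subunit Cox5b rose by 0.40 at 6 h on the TMM scale, stood at -0.11 on library totals, and fell by 0.35 ± 0.08 at 24 h. Cox4i1, a regulatory subunit, was in WT at 0.20 at 6 h, a call that ended without WT replicate 1, 2 or 3 and reversed to -0.31 on library totals, and fell by 0.46 ± 0.08 at 24 h. Cox7a1, an isoform known from muscle, was low, at 4.78 to 7.50 CPM in WT at 0 h and 1.34 to 3.57 CPM at 24 h, and fell by 1.26 ± 0.27. At 24 h 3 of the 14 complex IV genes rose and 3 fell in WT, and 2 and 3 in KO, where 34.5% of all genes rose and 35.4% fell in WT and 32.8% and 33.0% in KO.

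Ndufa4, named for complex I but known as a complex IV subunit, was at 54.3, 53.1, 59.1 and 59.2 CPM in WT at 0 h and 45.1, 38.6, 45.4 and 36.6 CPM at 24 h. The groups did not overlap, and it fell by 0.44 ± 0.13 (SE, adjusted p = 0.00366, edgeR). In KO it fell by 0.59 ± 0.17 (adjusted p = 0.00522), a call that ended without replicate 1, the highest library at 0 h with 87.0 CPM. Its homolog AA467197 (Nmes1), which is known to take the place of Ndufa4 in inflammatory cells and is no member by the naming rule, was at 20.6, 26.2, 28.3 and 21.2 CPM in WT at 0 h and 456, 490, 470 and 411 CPM at 24 h. At 0 h every WT library held less AA467197 than Ndufa4, and at 24 h every one held more. AA467197 rose by 4.21, 5.45, 5.31 and 4.25 at 3, 6, 12 and 24 h in WT and by 4.35, 5.78, 5.67 and 4.56 in KO. At 6 h AA467197 was higher in KO than in WT by 0.32 ± 0.07 (adjusted p = 0.0315, edgeR), where 1.01% of all genes were called.

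**Figure D4:**
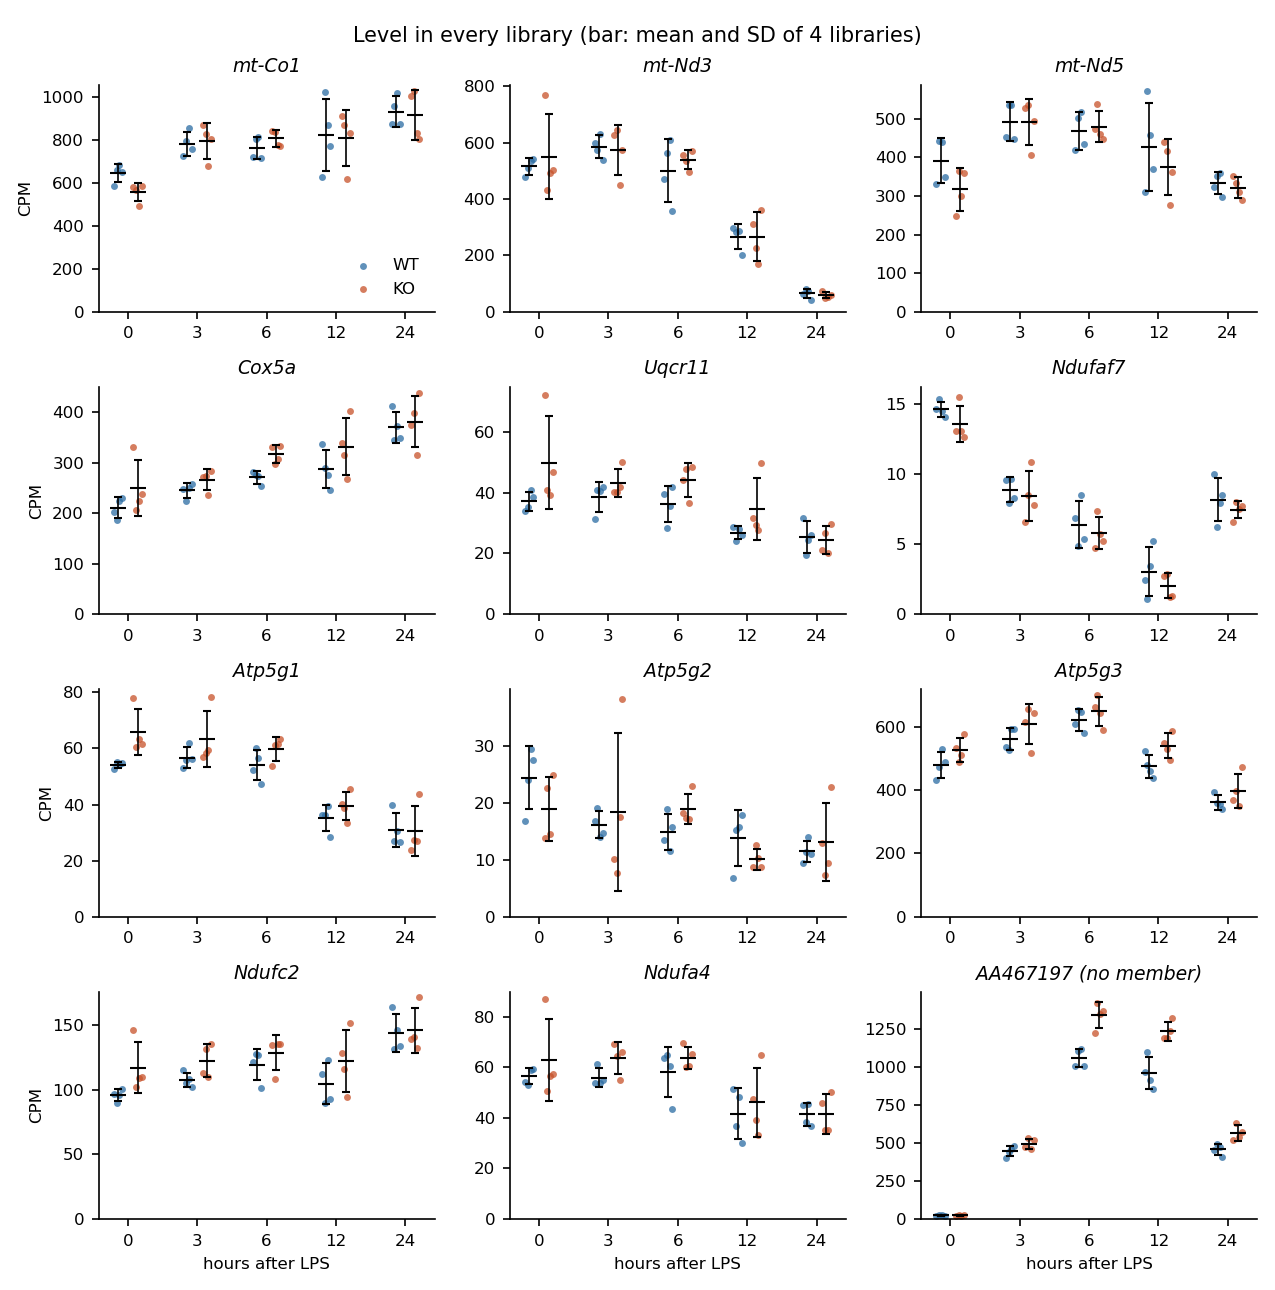
CPM on a linear axis (y) against hours after LPS for 11 members and for AA467197, 1 point per library, with bars for the mean and SD of 4 libraries, by genotype. mt-Nd3 falls to 43.1 to 82.0 CPM at 24 h in all 8 libraries, Cox5a climbs to at least 315 CPM and AA467197 to at least 411 CPM, and KO replicate 1 at 0 h stands out for Cox5a (330 CPM) and Uqcr11 (72.2 CPM).

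The ATP synthase genes fell or did not pass at 24 h, with 1 exception. Of 17, 8 fell and 1 (Atp5f1, of the stator, at 0.30 ± 0.08) rose in WT, while on library totals Atp5f1 was at 0.00. In KO 6 fell and none rose. Over all genes 35.4% fell and 34.5% rose in WT and 33.0% and 32.8% in KO. At 6 h 31.0% of all genes had risen and 37.1% fallen in WT. Of the 17, 10 had risen and 2 fallen by then on the TMM scale, and none of the rises passed on library totals. Atp5s (a coupling factor) was among those 2 and fell by 1.95 ± 0.41 at 6 h, from 4.09, 5.11, 4.72 and 6.87 CPM to 1.07, 2.04, 1.83 and 0.508 CPM. By 24 h Atp5s was back at 4.84 to 5.70 CPM.

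The paralogs Atp5g1, Atp5g2 and Atp5g3 encode the same mature c subunit, the membrane ring of the enzyme, behind different import sequences, so their 3 promoters offer a comparison of genes with 1 product. They are printed as 150 bases up to the annotated start in RefSeq GRCm38.p6, read on the gene's strand, at chr11:96075632-96075781 (minus strand), chr15:102671048-102671197 (minus) and chr2:73911327-73911476 (minus). Capitals mark a match to GCATGCG, the core of the site of NRF1, a factor known to bind many respiratory genes. It matches on both strands, and the overlapping matches are capitalised together.
Atp5g1: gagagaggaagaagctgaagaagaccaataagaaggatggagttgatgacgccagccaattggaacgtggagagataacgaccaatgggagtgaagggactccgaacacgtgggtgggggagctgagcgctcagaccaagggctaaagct
Atp5g2: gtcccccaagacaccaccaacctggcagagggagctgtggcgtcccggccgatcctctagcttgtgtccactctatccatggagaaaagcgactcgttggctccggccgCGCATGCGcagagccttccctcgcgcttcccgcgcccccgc
Atp5g3: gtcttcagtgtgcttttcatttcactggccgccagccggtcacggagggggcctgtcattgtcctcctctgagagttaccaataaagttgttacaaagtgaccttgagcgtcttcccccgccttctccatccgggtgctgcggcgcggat
Of the 3 only Atp5g2 has the motif in these bases, close to the start. Atp5g1 and Atp5g3 have no match in the longer window that was searched.

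All 3 paralogs fell by 24 h in WT. Atp5g3, the most abundant, was at 430, 472, 530 and 488 CPM at 0 h, 610, 653, 646 and 579 CPM at 6 h and 395, 358, 355 and 339 CPM at 24 h. The 4 libraries at 6 h lay above and those at 24 h below all 4 at 0 h, with differences of 0.37 ± 0.07 and -0.41 ± 0.07 (SE, adjusted p = 9.46e-05 and 2.53e-05, edgeR), but on library totals the value at 6 h was -0.14. KO gave 0.28 and -0.41. Atp5g1 was at 52.8, 55.1, 54.1 and 54.8 CPM in WT at 0 h and 39.7, 27.0, 30.4 and 26.7 CPM at 24 h. It fell by 0.81 ± 0.11 in WT (adjusted p = 3.86e-07) and by 1.10 ± 0.15 in KO, from 12 h on and without overlap. Atp5g2 was at 16.8, 24.1, 29.5 and 27.5 CPM in WT at 0 h and 9.50, 11.4, 14.0 and 11.1 CPM at 24 h. It fell by 1.07 ± 0.21 (adjusted p = 9.81e-05). In KO, where it scattered between 7.32 and 22.7 CPM at 24 h, the difference was -0.51 ± 0.40 (adjusted p = 0.268).

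Cox5a, which with Ndufaf3 rose at 24 h on both scales in both genotypes, has this promoter at chr9:57521082-57521231 (plus strand), 150 bases up to its start with no match to any motif searched.
Cox5a: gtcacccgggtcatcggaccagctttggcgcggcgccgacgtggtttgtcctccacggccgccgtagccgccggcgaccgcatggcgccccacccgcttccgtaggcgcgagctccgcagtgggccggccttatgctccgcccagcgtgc
Promoters of 300 bases were found in RefSeq for 70 of the 85 nuclear genes and searched on both strands. A gene was counted if any of its promoters matched, and the background was all 27025 genes with a promoter, expressed or not. GCATGCG (NRF1) was in 12 of the 70 genes, or 17.1%, against 4.01% of all 27025. CCGGAAG (the ETS site that GABPA binds) was in 16, or 22.9%, against 9.93%. ATGGCGG (YY1) was in 12, or 17.1%, against 4.69%, and TATAAA in 5, or 7.14%, against 15.7%. Of the 12 genes with the NRF1 letters 5 fell and 2 rose at 24 h in WT, with a median of -0.19. Of the 58 without them 24 fell and 7 rose, with a median of -0.16. With the ETS letters 8 of 16 fell and 3 rose, with a median of -0.12, against 21 of 54 and 6, with a median of -0.16. These are descriptions of letters in a window, on the TMM scale.

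No member passed the test of KO against WT at any time. At 0, 3, 6, 12 and 24 h the count was 0 of 98 tested (97 at 6 h), where 0%, 0.689%, 1.01%, 0.0464% and 0.0809% of all genes were called. At an unadjusted p under 0.05 there were 7, 12, 7, 3 and 5 members. Over all genes there were 900 of 11734, 1292 of 11035, 1265 of 10518, 832 of 10783 and 830 of 11122. DESeq2 called no member either. The smallest p-values at 0 h belonged to Atp5g1 (0.27 ± 0.09, SE, adjusted p = 0.482), Ndufc2 (0.28 ± 0.10) and mt-Co1 (-0.22 ± 0.08, adjusted p = 0.526). At 3 h they were those of Ndufs5 (0.31), Atp5c1 (0.18) and Ndufa11 (0.28), and at 6 h those of Ndufa6 (0.22), Cox5a (0.21) and Ndufb4c (-0.54). At 12 h they were Cox5b (0.23), Ndufc1 (0.22) and Ndufa6 (0.20). At 24 h they were Ndufb7 (0.50 ± 0.16, adjusted p = 0.366), mt-Nd4l (0.46 ± 0.15, adjusted p = 0.405) and Cox5b (0.22). Without a filter on low counts, Uqcr11 (0.42, adjusted p = 0.0181) and mt-Nd5 (-0.31, adjusted p = 0.0446) were called at 0 h. The 2 neutrophil genes tested, S100a8 and S100a9, were lower in KO at 3 h by 0.76 and 1.08, and their part in these values was not tested.

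Most nuclear members nevertheless stood slightly above WT in KO, and single KO libraries carried part of this. Of the 85 (84 at 6 h), 66, 74, 69, 77 and 70 had a difference above 0 at 0, 3, 6, 12 and 24 h, with medians of 0.09, 0.12, 0.09, 0.14 and 0.09, while the medians of all genes lay between -0.01 and 0.01. The mitochondrial medians were -0.17, -0.01, 0.02, -0.11 and -0.06. KO replicate 1 at 0 h was the highest of its 4 libraries for 56 of the 85 genes. KO replicate 4 was the highest for 59 at 3 h, 61 at 12 h and 75 at 24 h. Without KO replicate 1 the nuclear median at 0 h was 0.02, and without KO replicate 4 those at 12 and 24 h were 0.04 and 0.01. KO replicate 3 was the lowest library for all 13 mitochondrial genes at 3 and at 12 h. All these ranks were counted for members only, so whether other genes share them was not tested. Before LPS the within-library ratio of mitochondrial to nuclear counts was 0.02 to 0.10 in KO and 0.18 to 0.39 in WT, groups that did not overlap. At the 4 later times they did.

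**Figure D5:**
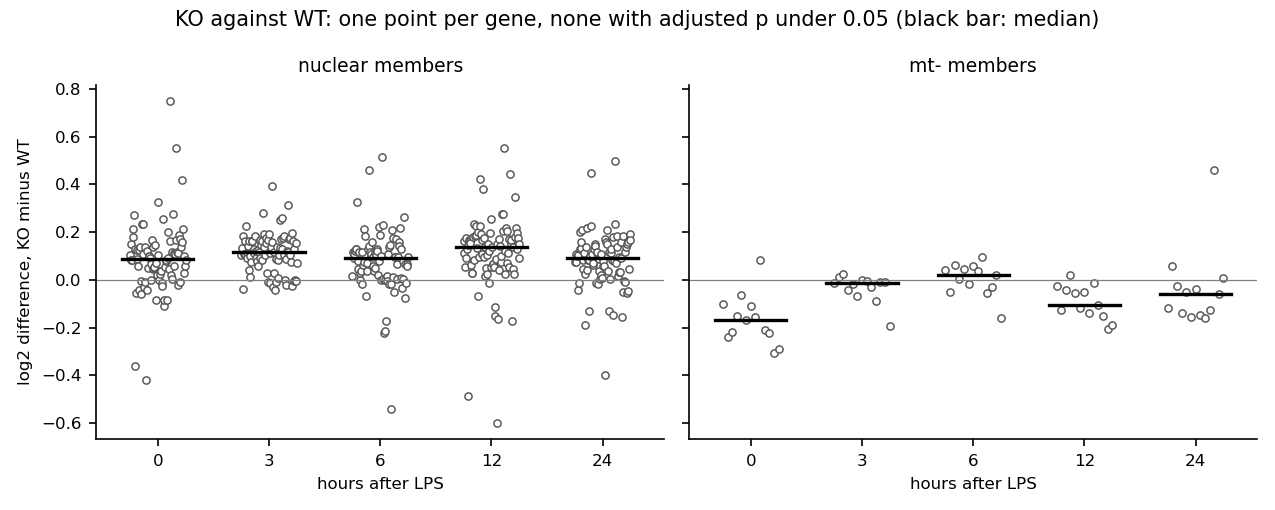
Log2 difference KO minus WT (y axis) of the members at 0, 3, 6, 12 and 24 h (x axis), nuclear and mitochondrial genes apart, with the medians. Nuclear medians lie between 0.09 and 0.14 and mitochondrial ones between -0.17 and 0.02, and no member passed the adjusted threshold.

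Whether the response to LPS differed between the genotypes was tested as an interaction, which called 0 of 98 members at each of the 4 times, where 0%, 0%, 0% and 0.00818% of all genes were called at 3, 6, 12 and 24 h. DESeq2 also called none. At an unadjusted p under 0.05 the interaction held 1, 3, 0 and 2 members. Over all genes it held 342 of 12165, 529 of 12096, 396 of 12164 and 474 of 12226. The smallest p-values were those of mt-Co1 at 3 h (0.25 ± 0.12) and at 6 h (0.29 ± 0.10, adjusted p = 0.97), and of mt-Nd4l at 24 h (0.68 ± 0.27, adjusted p = 1.0). For Uqcr11 the interaction at 24 h was -0.48 ± 0.26 (adjusted p = 1.0) and did not pass, and it ran from -0.61 to -0.18 when single replicates were left out.

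Genes that assemble and feed the chain but are no members were tested on the TMM scale alone. The background at 24 h is 34.5% of all genes higher and 35.4% lower in WT (69.9% in either direction), and 32.8% and 33.0% in KO. Of 19 complex IV assembly factors tested, 11 rose and 4 fell at 24 h in WT (median 0.42) and 10 and 4 in KO (median 0.35). The copper chaperones parted: Sco1 rose by 1.73 ± 0.13 and Sco2 fell by 2.29 ± 0.24 in WT at 24 h, and Cox18 and Coa5 rose by 1.84 and 1.48. Cycs, the electron carrier cytochrome c, rose at all 4 times in WT, by 1.39 at 12 h and 0.94 at 24 h. Of the 4 subunits of complex II 3 rose in WT and 1 in KO, led by Sdhb at 0.63 in WT. Of its 4 assembly factors 2 rose and 2 fell, Sdhaf2 by 1.10 in the first group. Of 5 complex III assembly factors 3 fell and 1 rose, of 10 coenzyme Q genes 5 fell and 2 rose, and of 20 import genes 11 fell and 1 rose. Timm9, an import chaperone, fell by 1.62.

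Among genes that make and handle mitochondrial RNA, 10 of 15 processing and stability genes fell and 4 rose in WT at 24 h (median -0.47), and 6 and 4 in KO, where 35.4% of all genes fell and 34.5% rose in WT and 33.0% and 32.8% in KO. Lrpprc and Slirp, partners in 1 complex that stabilises mitochondrial messengers, moved apart. Lrpprc was at 168, 195, 177 and 180 CPM in WT at 0 h and at 55.1, 63.3, 53.0 and 58.3 CPM at 24 h, and fell by 1.65 ± 0.08 in WT and by 1.53 in KO. At 3, 6 and 12 h Lrpprc was at 0.04, -0.21 and -1.19 in WT. Slirp rose by 1.17 ± 0.09. The RNA nuclease gene Pnpt1 rose by 1.52, 1.93, 1.11 and 0.88 at 3, 6, 12 and 24 h. Fastkd5 and Fastkd2 fell by 2.09 and 1.67 at 24 h. Of 11 transcription and DNA maintenance genes 5 fell and 1 rose in WT, against the same 35.4% and 34.5%. Polrmt, the mitochondrial RNA polymerase, fell by 0.64, 1.38, 1.44 and 0.83, whereas Tfam, the transcription and packaging factor, was at 0.12, 0.23, -0.08 and -0.01 and passed at 6 h alone. The ribosomal RNAs mt-Rnr1 and mt-Rnr2 were at 0.13 and 0.07 in WT at 24 h and did not pass, and 1 of the 2 rose in KO.

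Of the regulators of nuclear respiratory genes, 3 of 9 rose and 3 fell at 24 h in WT, near the 34.5% and 35.4% of all genes. Nrf1 rose at 3 h by 0.45 and was at -0.01 at 24 h. Gabpa, which binds the ETS letters, rose by 0.86 and 0.88 at 3 and 6 h and was at -0.12 and -0.06 afterwards. Ppargc1b, a coactivator of mitochondrial genes, rose by 1.57 at 3 h and fell by 0.73 at 24 h, and Pprc1, a related coactivator, fell by 1.74 at 24 h.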

How the data were processed

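RNA from 40 macrophage cultures, 4 per genotype and time, was measured by QuantSeq 3′ mRNA FWD libraries. The authors deposited a table of expected counts per gene, not normalized, and all its values were whole numbers. Per the submitters' processing notes, the tools were RSEM 1.3.3, STAR 2.7.10a, cutadapt 3.7, FastQC 0.11.9 and UMI-tools 1.1.2, with genome build GRCm39. Settings, annotation, strand and identifier handling: not given in the sources used here. Overlapping genes and close copies can share tags.

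Symbols came from GENCODE vM21 and matched 52029 of 57010 identifiers. Genes without a symbol held 1.39% of counts. Members and gene lists were chosen with earlier results of these data known. Tests used edgeR 4.0.16 in R 4.3.3 (TMM, filterByExpr with a minimum count of 10, robust quasi-likelihood fit, two-sided F-test, Benjamini-Hochberg over all genes tested, threshold 0.05). LPS was tested within the 20 libraries of a genotype, KO against WT within the 8 of a time, and the interaction within 16. The SE of a log2 fold change is its size divided by the root of its F statistic. The fits were tested on simulated data. No p is given for sums or ratios over members.

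Genes named by rule were Cox5a, Uqcr11, mt-Co1 and mt-Nd5, the highest and lowest of each class at 3 and 24 h in WT, the members with the smallest p between genotypes, the 2 sides of the CPM floor, paralogs, up to 4 called genes of each other list, and Pnpt1, Tfam, Nrf1, Gabpa, Ppargc1b, Polrmt and Lrpprc. Further genes were named after their values were seen, and 2 genes are not reported here. The NRF1 and YY1 motifs were shortened to 7 letters after matches to longer forms had been counted. Alternatives were DESeq2 1.42.0, RLE factors, library totals alone, TMM without mitochondrial genes, no filter, a replicate block, leaving out the replicates without Xist, leaving out each replicate, and 1 fit of all libraries.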

Additional observations from a re-analysis of the deposited data

Results flagged for a closer look

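In 110 groups of 4 libraries, covering sums, ratios and 7 genes, 7 held 1 library far from the other 3. Chance gives about 1 in 20 such groups. The share of counts from nuclear members was 1.18% in KO replicate 4 at 3 h, above the others. The log2 ratio of mitochondrial to nuclear counts was 0.54 in WT replicate 3 at 3 h, above the others. Uqcr11 was at 31.3 CPM in WT replicate 1 at 3 h, below the others. mt-Nd3 was at 201 CPM in WT replicate 4 at 12 h, below the others. Ndufaf7 was at 15.5 CPM in KO replicate 2 at 0 h, above the others. Ndufaf3 was at 17.3 CPM in KO replicate 4 and at 17.0 CPM in WT replicate 1 at 12 h, each above its group.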

How the results depend on the processing

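Scaling by library totals alone moved most counts and lowered the median of all genes in WT. Members called against 0 h were then 61, 75, 89 and 84 in WT at 3, 6, 12 and 24 h (31, 49, 43 and 54 with TMM), and 36, 72 and 76 in KO at 3, 6 and 12 h (18, 40 and 36). From 6 to 12 h they were 32 in WT (52) and 18 in KO (40), and from 3 to 6 h 20 in KO (6). The nuclear medians became -0.28, -0.38, -0.55 and -0.46 in WT and -0.27, -0.44, -0.49 and -0.47 in KO. The mitochondrial medians became -0.071, -0.28, -0.50 and -0.79 in WT and 0.11, -0.17, -0.48 and -0.65 in KO. At 3 h in WT Cox5a (-0.15), Uqcr11 (-0.30), mt-Co1 (-0.082), Ndufaf8 (-0.25), Uqcrfs1 (-0.095) and Atp5k (-0.090) changed direction. The size of this follows from the factors themselves, which differ between 0 h and later times.

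DESeq2 called 28 members in KO at 3 h in place of 18. Without a filter 2 were called between genotypes at 0 h in place of 0, and 7 from 3 to 6 h in WT in place of 12. The nuclear median in WT at 12 h was -0.10 with DESeq2 and with RLE factors, in place of -0.15. The mitochondrial to nuclear ratio in KO at 6 h had risen by 0.34 when medians replaced sums. The cause of these was not tested.

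Leaving out 1 replicate gave 15 to 24 members called in WT at 3 h, 8 to 19, 22 to 41 and 19 to 35 in KO at 3, 6 and 12 h, 4 to 14 from 3 to 6 h in WT, and 2 to 8 and 20 to 41 in KO from 3 to 6 and 6 to 12 h. The medians ran from 0.077 to 0.19 (nuclear, WT, 6 h), -0.21 to -0.11 (nuclear, WT, 12 h), -0.61 to -0.35 and -0.56 to -0.32 (mitochondrial, 24 h, WT and KO), 0.044 to 0.18 (nuclear, KO minus WT, 12 h) and -0.16 to -0.028 (mitochondrial, KO minus WT, 24 h).

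The replicate numbers are shared by the labels but not said to pair the cultures, and the main tests used no pairing. Xist was below 10 CPM at all times in KO replicate 3 and WT replicate 4 and in no other library. Whether a number marks a single animal is not given in the labels. Within a genotype, 36 of 40 libraries correlated best with their own number at other times. With the number as a replicate block, 38, 58, 51 and 59 members were called in WT and 21, 44, 42 and 56 in KO, and 0 between genotypes or in the interaction. The block also called mt-Nd5 in WT, at 0.34 (adjusted p = 0.00048) at 3 h and -0.22 (adjusted p = 0.0121) at 24 h. The steps gave 15, 59 and 36 in WT and 9, 43 and 28 in KO. Members of a few CPM, such as Atp5s and Cox7a1, rest on few counts and are the least precise.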
